A study of Mus musculus with 12 samples.

Results

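The TNF superfamily in the small intestine of transplanted mice was described through 26 genes whose symbols start with Tnfsf (8 ligands) or Tnfrsf (18 receptors). They were the genes named alone by a probe set in the platform annotation, with Tnfsf10, Tnfrsf10b and Tnfrsf1a left out, and they make up 26 of 21408 genes so named. Each member had 1 probe set, out of 23991 on the arrays. RNA came from small intestine of wild type BALB/c mice 14 days after total body irradiation and injection of C57BL/6N bone marrow and T cells, a transplant across strains that models acute graft-versus-host disease, where T cells of the donor damage the gut. The mice behind the 6 arrays of one group had been injected daily into the peritoneum with 200 mg/kg tauroursodeoxycholic acid (TUDCA), a taurine-conjugated bile acid, and those behind the 6 arrays of the other with an equal volume of vehicle. Both groups carried the irradiation and the graft, so no value refers to a mouse without transplantation, and the labels used here state no age. The title of the series names intestinal apoptosis and inflammation as the processes of interest.

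Ligands of the TNF superfamily are mostly trimers on the surface of immune and stromal cells, and each binds one or a few receptors. Receptors with a death domain can start apoptosis or inflammatory signalling, receptors without one recruit TRAF adaptor proteins that switch on NF-kappaB and MAP kinases, and decoy receptors bind ligand without passing on a signal. In the gut the family supplies costimulation to T cells, survival factors to B and plasma cells, and signals that shape the epithelium, such as RANK ligand for the M cells over lymphoid follicles and TWEAK for injured epithelium.

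The promoters of the 4 members with the smallest p, all of which lay higher under TUDCA, are printed so that the letters stand beside their values. Each is the stretch of 250 bases before the annotated start in RefSeq, build GRCm38.p6, written 5′ to 3′ on the strand of the gene. RefSeq promoters were matched for 21 of the 26 genes. Capitals mark matches on either strand to any of 6 motifs. AP-1 was searched as TGANTCA. The STAT site called GAS was searched as TTCNNNGAA. The site of TEAD factors was searched as GGAATG, and the TATA box as the letters TATAAA. The GC box was searched as GGGCGG, and the NF-kappaB site by its usual consensus.
Tnfrsf12a (chr17:23677450-23677699, minus strand): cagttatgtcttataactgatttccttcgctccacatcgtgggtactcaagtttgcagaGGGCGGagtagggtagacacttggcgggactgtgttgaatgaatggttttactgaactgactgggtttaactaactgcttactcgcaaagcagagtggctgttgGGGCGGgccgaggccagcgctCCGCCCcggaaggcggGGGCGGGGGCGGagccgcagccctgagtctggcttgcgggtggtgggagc
Tnfsf15 (chr4:63745060-63745309, minus strand): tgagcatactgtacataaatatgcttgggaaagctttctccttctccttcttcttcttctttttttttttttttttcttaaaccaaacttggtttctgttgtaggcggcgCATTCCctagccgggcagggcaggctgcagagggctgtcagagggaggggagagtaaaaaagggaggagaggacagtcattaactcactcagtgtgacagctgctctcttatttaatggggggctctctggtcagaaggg
Tnfrsf21 (chr17:43016305-43016554, plus strand): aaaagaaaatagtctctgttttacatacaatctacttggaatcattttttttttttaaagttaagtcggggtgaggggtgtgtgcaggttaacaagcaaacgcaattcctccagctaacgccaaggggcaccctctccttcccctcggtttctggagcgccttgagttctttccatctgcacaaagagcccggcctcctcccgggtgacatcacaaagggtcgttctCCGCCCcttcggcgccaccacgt
Tnfrsf23 (chr7:143685876-143686125, minus strand): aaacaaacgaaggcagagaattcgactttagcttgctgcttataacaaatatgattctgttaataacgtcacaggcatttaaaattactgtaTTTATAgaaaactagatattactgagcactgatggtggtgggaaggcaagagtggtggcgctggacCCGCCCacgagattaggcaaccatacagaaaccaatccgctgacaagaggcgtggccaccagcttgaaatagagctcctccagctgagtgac
The Tnfrsf12a promoter held 5 GC boxes and no match to the other 5 motifs. GC boxes were found in 10 of the 25 promoters of the 21 matched genes and in 32.7% of all 32851 promoters of this length. The Tnfsf15 promoter held 1 TEAD match, the Tnfrsf21 promoter 1 GC box and the Tnfrsf23 promoter 1 TATA match and 1 GC box. AP-1 matches occurred in 4 of the 25 promoters (6.75% of all promoters), GAS matches in 4 (7.02%), TEAD matches in 4 (12.6%) and TATA matches in 4 (12.4%). NF-kappaB matches occurred in 2 of the 25 promoters, of Tnfrsf8 and Tnfrsf9 only (3.9% of all promoters). The GC box was added to the motifs after the sequences had been seen.

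Expression was read as the deposited log2 value of a probe set, so a difference of 1 is a doubling or halving. Array medians lay from 5.90 to 5.95, and correlations between arrays from 0.984 to 0.993. The samples carried numbers from either a low range (4 vehicle and 2 TUDCA arrays) or a high range (2 vehicle and 4 TUDCA arrays), whose meaning the labels do not give, and every difference was estimated within the ranges. The description label names CXCL12-abundant reticular cells, in conflict with the other labels. The 16 measured markers of intestinal epithelium had a mean level of 10.86 to 11.06 in the TUDCA arrays and 10.93 to 11.17 in the vehicle arrays, with Lct alone among them dim and 1 of the 16 past the test, on the lower side. At an unadjusted p of 0.05 in limma 1 of the 16 was higher and 5 were lower, against 7.24% and 6.84% of all probe sets. Their median difference was −0.09. The 9 reticular cell markers averaged 6.45 to 6.79 and 6.52 to 6.78, with Foxc1 dim. A probe set was called dim where its mean lay below 5.31, the 95th percentile of 1093 probe sets of olfactory receptors, genes of the nose taken to be little expressed in the gut. By that level 11 of the 26 members were dim and 15 were not, and differences of dim probe sets are compressed. The dim members were 6 of the 8 ligands (Tnfsf4, Tnfsf8, Tnfsf9, Tnfsf11, Tnfsf14 and Tnfsf18) and the receptors Tnfrsf8, Tnfrsf13b, Tnfrsf17, Tnfrsf22 and Tnfrsf26.

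One receptor gene of the superfamily, Tnfrsf12a, rose under TUDCA, and no member fell. By limma with Benjamini-Hochberg adjustment over all probe sets, 1 of 26 members passed an adjusted p of 0.05 (3.85%), against 2.52% of all probe sets. Higher calls made up 1.00% of all probe sets and lower calls 1.52%. At an unadjusted p of 0.05 the count was 8 of 26 members (30.8%), 5 higher and 3 lower, against 14.1% of all probe sets (7.24% higher and 6.84% lower). The median difference of the members was −0.01, and that of all probe sets was 0.01. Without Tnfrsf12a the differences of the other 25 ran from −0.37 (Tnfsf13b) to 0.45 (Tnfrsf23), with 11 above 0 and 14 below. For 8 of the 26 members all 6 TUDCA arrays lay on the same side of the vehicle mean of their own range, as they did for 16.1% of all probe sets. The count of higher members rested on settings: it was 3 with probe sets below the median level left out and 3 with array weights, the added ones being Tnfsf15 and Tnfrsf21, and it was 0 in the high range alone.

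**Figure D1:**
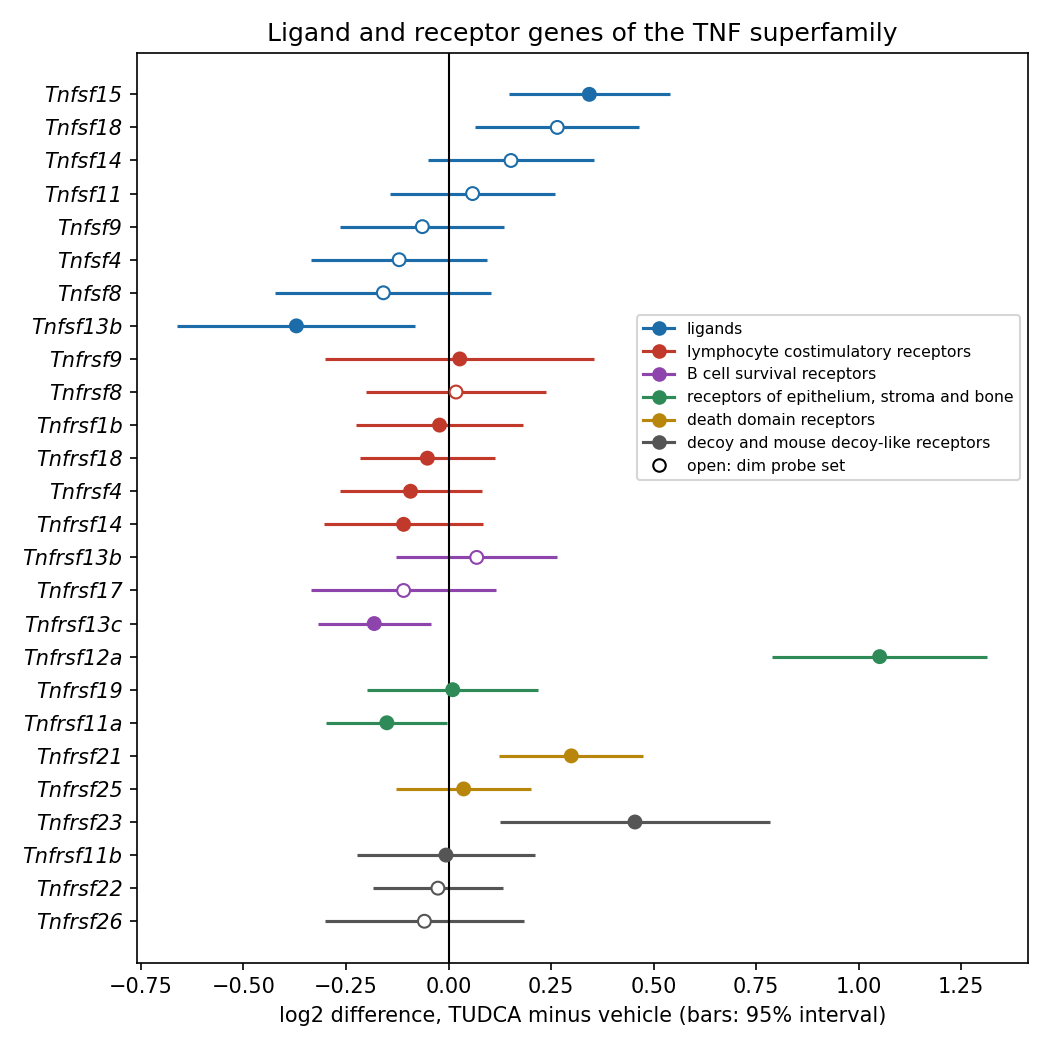
Log2 difference between TUDCA and vehicle for the 26 members, 6 arrays a group, grouped by role, with unadjusted 95% intervals from limma as bars and open circles for dim probe sets. Tnfrsf12a stands at 1.05, and the other members lie between −0.37 and 0.45.

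Tnfrsf12a encodes Fn14, the receptor of TWEAK, which signals through TRAF adaptors and is known to be induced in injured epithelium and stroma. Its log2 value was 8.12, 8.13, 7.13, 7.17, 7.03 and 6.94 in TUDCA replicates 1 to 6 and 6.71, 6.72, 6.56, 6.72, 6.37 and 6.45 in vehicle replicates 1 to 6. Every TUDCA array lay above every vehicle array. Tnfrsf12a was the only 1 of the 26 members with such separate groups (1.98% of all probe sets in either direction, and 0.800% higher). TUDCA replicates 1 and 2, the treated samples of the low range, stood highest by a wide margin. The group means were 7.42 ± 0.55 (SD, n = 6) and 6.59 ± 0.15 (SD, n = 6). The difference within ranges was 1.05 ± 0.12 (SE; 95% interval 0.79 to 1.31), or 2.07-fold, with an adjusted p of 0.00067 in limma. It was 1.45 in the low range and 0.65 in the high range. The difference between the ranges was −0.79 ± 0.13 (SE; unadjusted p = 3.95e-05), which did not pass adjustment over all probe sets (adjusted p = 0.198, interaction term in limma). Without both low range TUDCA arrays, an alternative chosen after their values had been seen, the difference was 0.65 and its call remained (adjusted p = 0.0307), whereas in the high range alone it did not pass (adjusted p = 0.112). Leaving out any 1 array gave differences from 0.95 to 1.16.

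Genes linked to injured epithelium were read in the same arrays. Of 8 measured genes of that list 1 rose and none fell, and 7 of 8 differences were above 0, with a median of 0.24. At an unadjusted p of 0.05 the count was 5 higher and 0 lower, against 7.24% of all probe sets higher. The gene that rose was Sprr1a, a cornified envelope protein, which ran from 7.54 to 9.06 under TUDCA and from 6.88 to 7.77 under vehicle. Its difference was 1.23 (adjusted p = 0.00262), and without both low range TUDCA arrays it was 0.97 and did not pass (adjusted p = 0.166). The mean level of the 8 genes was 7.57 to 7.89 in the TUDCA arrays and 7.20 to 7.55 in the vehicle arrays. The part of such cells in the difference of Tnfrsf12a was not tested. The ligand of Fn14, encoded by Tnfsf12, was not analysed here.

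Among the other receptors of epithelium, stroma and bone, no change passed the test. Tnfrsf11a encodes RANK, the receptor through which RANK ligand drives M cell formation. It ran from 8.66 to 8.91 (median 8.82) under TUDCA and from 8.77 to 9.14 (median 8.94) under vehicle, with overlapping groups. Its difference was −0.15 ± 0.07 (SE; adjusted p = 0.345), and all 6 TUDCA arrays lay below the vehicle mean of their own range. Tnfrsf19 encodes TROY, a receptor found in intestinal stem cells, and its difference was 0.01 (95% interval −0.20 to 0.22).

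**Figure D2:**
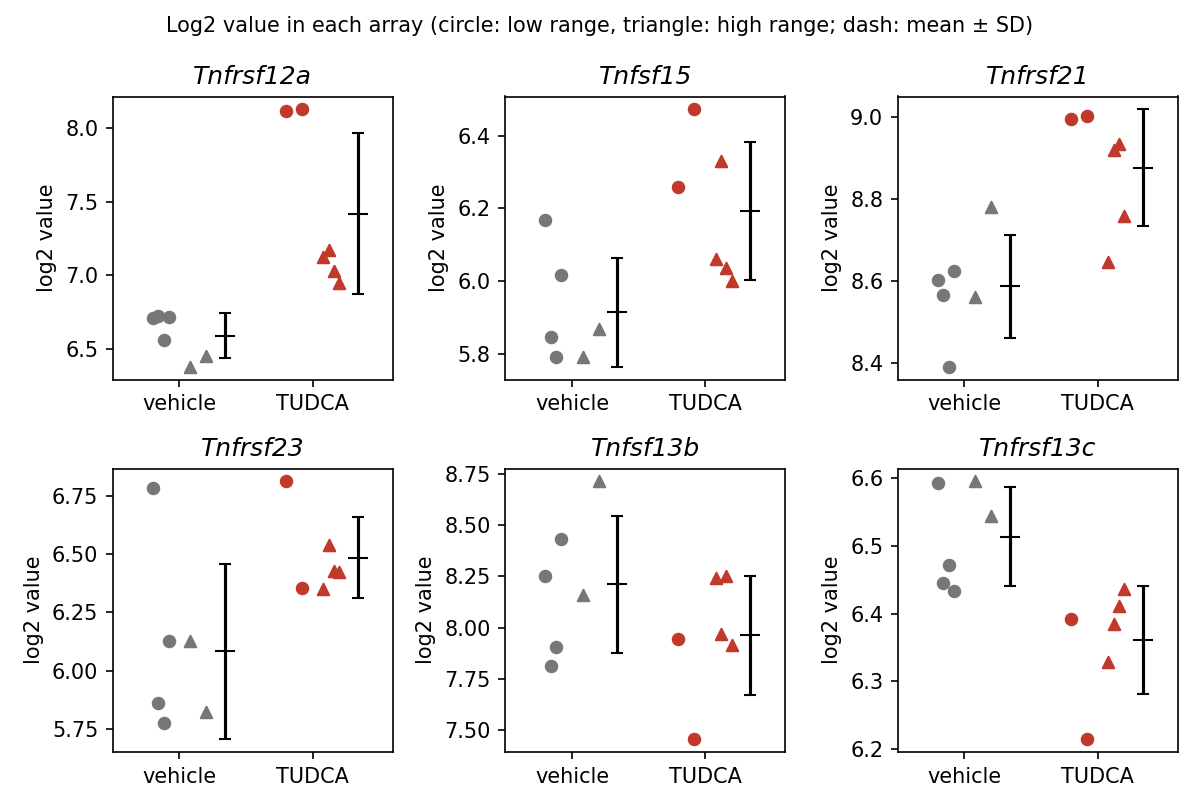
Log2 value in each array for 6 members, with vehicle in grey, TUDCA in red, circles for the low and triangles for the high number range, and a dash with bars for the mean and SD of 6 arrays. The Tnfrsf12a groups are separate, and those of the other 5 genes overlap.

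Differences of the 8 ligands ran from −0.37 to 0.34, and none passed the test (2 higher and 1 lower at an unadjusted p of 0.05 in limma). Tnfsf15 encodes TL1A, which costimulates T cells and innate lymphocytes through the receptor DR3. It ran from 6.00 to 6.47 (median 6.16) under TUDCA and from 5.79 to 6.17 (median 5.86) under vehicle. Vehicle replicate 1 was the highest of its group and the lower 3 TUDCA arrays lay below it. The difference was 0.34 ± 0.09 (SE; adjusted p = 0.0671), all 6 TUDCA arrays lay above the vehicle mean of their range, and the adjusted p ran from 0.0412 to 0.523 over the alternatives.

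Tnfsf13b encodes BAFF, a survival factor of B cells that myeloid and stromal cells make and that interferons can induce. It ran from 7.46 to 8.25 (median 7.96) under TUDCA and from 7.81 to 8.71 (median 8.21) under vehicle. TUDCA replicate 2 was the lowest array and vehicle replicate 6 the highest, and the groups overlapped. The difference was −0.37 ± 0.14 (SE; adjusted p = 0.207), nearly alike in the low range (−0.40) and the high range (−0.34), with all 6 TUDCA arrays below the vehicle mean of their range. The 13 measured macrophage and dendritic cell markers had mean levels of 6.82 to 7.28 under TUDCA and 7.13 to 7.36 under vehicle, with none past the test (1 higher and 2 lower at an unadjusted p of 0.05) and Xcr1 dim. Their part in the Tnfsf13b values was not tested.

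The 6 dim ligands gave small differences at low signal. Tnfsf18, encoding the ligand of GITR, ran from 3.10 to 3.57 (median 3.42) under TUDCA and from 2.95 to 3.43 (median 3.18) under vehicle, with a difference of 0.27 (adjusted p = 0.188). Tnfsf14 encodes LIGHT, a ligand of HVEM and of the lymphotoxin beta receptor, and ran from 4.49 to 4.97 (median 4.69) against 4.44 to 4.61 (median 4.50), with a difference of 0.15 (adjusted p = 0.524). Tnfsf8, encoding the ligand of CD30, ran from 4.28 to 4.71 (median 4.60) against 4.17 to 5.12 (median 4.57), with a difference of −0.16 (adjusted p = 0.632). The groups overlapped for each of these 3 genes. Tnfsf4 encodes OX40 ligand, a costimulator on antigen-presenting cells, and ran from 4.18 to 4.42 (median 4.33) against 4.08 to 4.62 (median 4.52), with a difference of −0.12 (adjusted p = 0.661). The remaining ligands were Tnfsf9, for the ligand of CD137, at −0.06 (95% interval −0.26 to 0.14), and Tnfsf11, for RANK ligand, at 0.06 (95% interval −0.14 to 0.26). Being dim, these probe sets carry little information on their genes.

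Receptors that costimulate lymphocytes showed no call. None of the 6 passed the test in limma, and 0 had an unadjusted p under 0.05. Tnfrsf9 encodes CD137, a receptor of activated T and NK cells. It ran from 5.78 to 6.62 (median 6.33) under TUDCA and from 5.93 to 6.70 (median 6.24) under vehicle, with a difference of 0.03 (95% interval −0.30 to 0.36). Tnfrsf4, encoding OX40 of activated CD4 T cells, stood at −0.09 (95% interval −0.27 to 0.08), and Tnfrsf18, encoding GITR of regulatory and activated T cells, at −0.05 (95% interval −0.22 to 0.11). A probe set naming Tnfrsf18 together with Gm16008, left out of the members, had the opposite sign, at 0.20 (adjusted p = 0.36 in limma). Tnfrsf1b encodes the second TNF receptor, found on regulatory T cells and myeloid cells, and stood at −0.02 (95% interval −0.23 to 0.18). Tnfrsf8, for CD30 of activated lymphocytes, was dim and stood at 0.02. Tnfrsf14 encodes HVEM, a receptor on epithelial and immune cells that can both costimulate and restrain T cells. It ran from 8.49 to 8.86 (median 8.65) under TUDCA and from 8.56 to 8.95 (median 8.81) under vehicle, with a difference of −0.11 ± 0.09 (SE; adjusted p = 0.661).

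In the same arrays 5 of 13 measured T and NK cell markers fell (against 1.52% of all probe sets) and none rose, with a median difference of −0.35. They were Cd8a (−1.03), Cd3g (−0.96), Cd3e (−0.93), Cd8b1 (−0.67) and Lat (−0.51), components of the T cell receptor complex, its CD8 coreceptor and its signalling. TUDCA replicate 2, of the low range, was the lowest of the 12 arrays for each of the 5 genes, with Cd3g at 6.24 against 7.49 to 7.96 in the other TUDCA arrays and Cd8a at 5.62 against 6.38 to 7.02. The difference of Cd8a was −1.47 in the low and −0.59 in the high range, and that of Cd3g −1.33 and −0.59. Without TUDCA replicate 2 the count was 3 of 13 (Cd8a, Cd3e and Cd8b1). It was 0 in the high range alone and 0 without both low range TUDCA arrays (5 and 4 lower at an unadjusted p of 0.05 in limma, 0 higher), where 10 of 13 differences were below 0. The mean level of the 13 markers was 5.96 to 6.77 in the TUDCA arrays and 6.67 to 7.26 in the vehicle arrays, with Ncr1 and Klrb1c dim. In bulk tissue, fewer T cells and less RNA per T cell cannot be told apart. Cd4 stood at −0.25 (adjusted p = 0.752) with wide spread. Of 5 measured regulatory T cell markers none passed (2 lower at an unadjusted p of 0.05 in limma), with Ikzf2 at −0.37 (adjusted p = 0.0669) and Foxp3 at −0.12 (adjusted p = 0.639). A difference between the receptors and the markers was not tested.

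**Figure D3:**
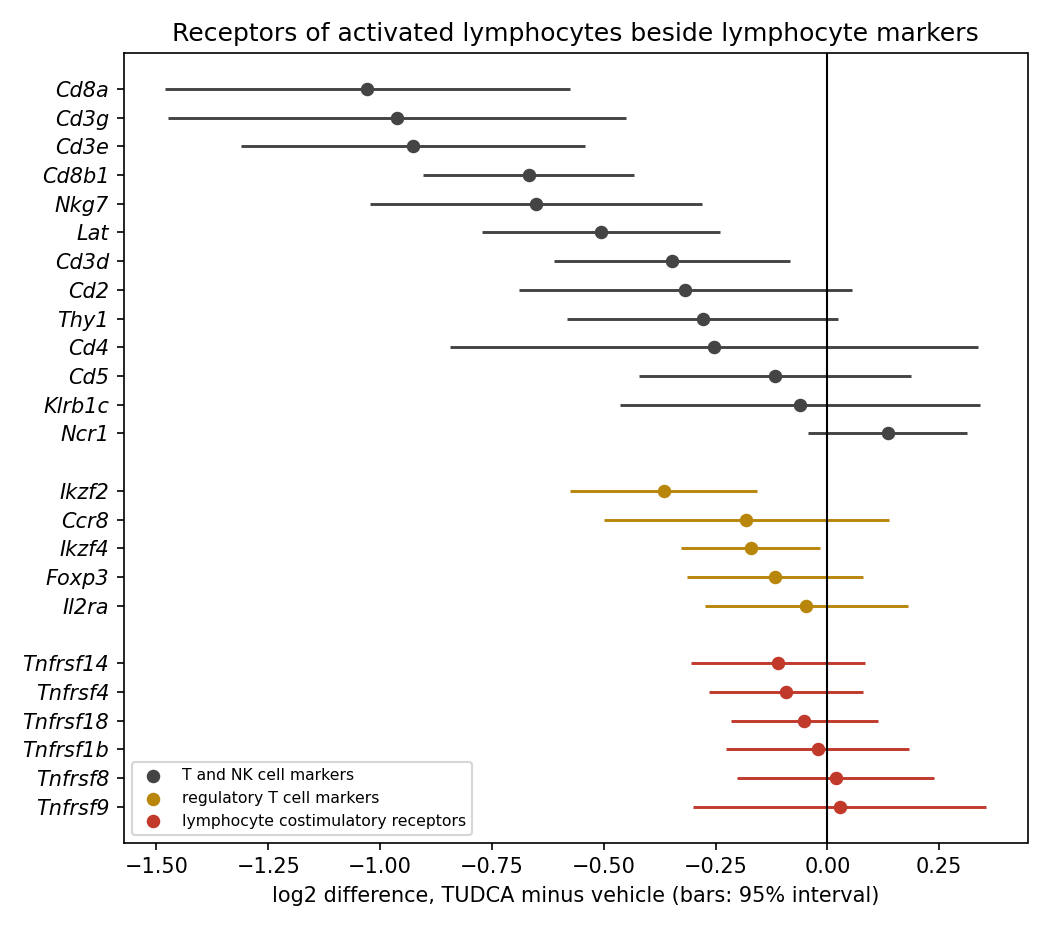
Log2 difference between TUDCA and vehicle, 6 arrays a group, with unadjusted 95% intervals from limma, for T and NK cell markers, regulatory T cell markers and the 6 receptors that costimulate lymphocytes. The markers reach −1.03 (Cd8a), and the intervals of the 6 receptors all include 0.

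Receptors for B cell survival factors did not pass the test. Tnfrsf13c encodes the BAFF receptor of mature B cells. It ran from 6.21 to 6.44 (median 6.39) under TUDCA and from 6.43 to 6.60 (median 6.51) under vehicle, so that TUDCA replicate 6 alone exceeded the lowest vehicle array, replicate 4. The difference was −0.18 ± 0.06 (SE; adjusted p = 0.193), the same to the second decimal in both ranges, and all 6 TUDCA arrays lay below the vehicle mean of their range. Tnfrsf17, encoding the plasma cell receptor BCMA, stood at −0.11 (95% interval −0.33 to 0.12) and Tnfrsf13b, encoding TACI, at 0.07 (95% interval −0.13 to 0.26). Both were dim. Of 13 measured B and plasma cell markers 1 fell, against 1.52% of all probe sets. It was Prdm1, a regulator of plasma cells and of T cells, at −0.51 (adjusted p = 0.0499 in limma). Its difference was −0.72 in the low and −0.29 in the high range, and TUDCA replicate 2 was its lowest array (6.23). At an unadjusted p of 0.05 in limma 0 of the 13 were higher and 2 lower, against 7.24% and 6.84% of all probe sets. The mean levels of the 13 overlapped, at 5.71 to 6.01 under TUDCA and 5.86 to 6.07 under vehicle. Of these markers 7 were dim, among them Ms4a1, Cd79a and Cd79b. The part of B cells in the Tnfrsf13c values was not tested.

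Neither of the 2 death domain receptors among the members passed the test. Tnfrsf21 encodes DR6, which is expressed in many tissues. It ran from 8.65 to 9.004 (median 8.93) under TUDCA and from 8.39 to 8.78 (median 8.58) under vehicle. TUDCA replicates 3 and 6 lay below vehicle replicate 6, the highest of its group, and the other 4 TUDCA arrays lay above all vehicle arrays. The difference was 0.30 ± 0.08 (SE; adjusted p = 0.0767), at 0.45 in the low range and 0.14 in the high range. It passed in the low range alone (adjusted p = 0.0368) and without TUDCA replicate 3 (adjusted p = 0.031). Omission of vehicle replicate 6 gave 0.38 (adjusted p = 0.0362), and its adjusted p ran from 0.031 to 0.735 over the alternatives. Tnfrsf25 encodes DR3, the receptor of TL1A, and stood at 0.04 (95% interval −0.13 to 0.20), with 3 TUDCA arrays above and 3 below the vehicle mean of their range.

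Of the 4 decoy and decoy-like receptors, Tnfrsf23 had the largest difference. It encodes a mouse decoy receptor of TRAIL that lacks a death domain. Its values ran from 6.35 to 6.81 (median 6.43) under TUDCA and from 5.78 to 6.78 (median 5.99) under vehicle. Vehicle replicate 1 stood far above the other 5 vehicle arrays, which ended at 6.13, below every TUDCA array. The difference was 0.45 ± 0.15 (SE; adjusted p = 0.168), at 0.45 in the low and 0.46 in the high range. Without vehicle replicate 1 it was 0.56 and passed (adjusted p = 0.017), and over the alternatives it ran from 0.36 to 0.56 and its adjusted p from 0.017 to 0.534. Its neighbours in the same gene cluster, Tnfrsf22 and Tnfrsf26, were dim and stood at −0.03 and −0.06. Tnfrsf11b encodes osteoprotegerin, the soluble decoy of RANK ligand, and its difference was −0.01 (95% interval −0.22 to 0.21).

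The size of the differences was set side by side in the 2 number ranges. For Tnfrsf9 the difference was −0.36 in the low and 0.42 in the high range, and for Tnfrsf14 it was −0.36 and 0.15. Both TUDCA arrays of the low range lay below, and all 4 of the high range above, the vehicle mean of their range for each of these receptors. The interaction gave an unadjusted p of 0.00581 for Tnfrsf9 and 0.00129 for Tnfrsf14, and neither passed adjustment (adjusted p = 0.516 for both in limma). For 5 of 26 members (19.2%) the interaction had an unadjusted p under 0.05, against 7.68% of all probe sets, and none of the 23991 probe sets passed after adjustment. The other members among the 5 were Tnfrsf12a, Tnfsf11 and Tnfrsf4.

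**Figure D4:**
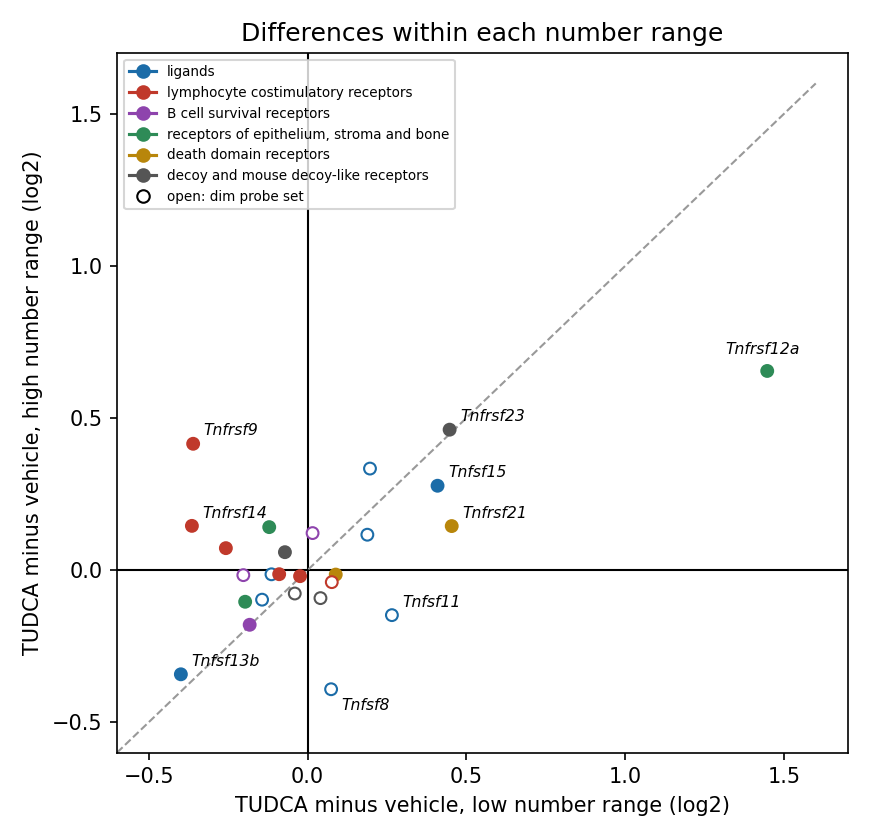
Log2 difference between TUDCA and vehicle in the low number range (horizontal; 2 TUDCA and 4 vehicle arrays) and in the high range (vertical; 4 and 2) for the 26 members, coloured by role, with a dashed line of equal difference. Tnfrsf12a lies at 1.45 and 0.65, Tnfrsf23 on the dashed line, and Tnfrsf9 at −0.36 and 0.42.

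Ligands and their receptors were compared as pairs. Of 14 known pairs of ligand and receptor both sides were measured in 11, and the 2 differences had the same sign in 4. The pairs are not independent, since BAFF and RANK ligand recur with different receptors. Several of the differences were smaller than their SE, so their signs carry little information. TL1A and DR3 stood at 0.34 and 0.04, GITR ligand and GITR at 0.27 and −0.05, and BAFF and its receptor at −0.37 and −0.18. The probe set naming Tnfrsf18 with Gm16008, not used for the pairs, stood at 0.20, the same sign as GITR ligand. RANK ligand stood at 0.06, against −0.15 for RANK and −0.01 for osteoprotegerin. Members that neighbour each other in the genome, with at most 2 protein-coding genes between them in RefSeq, formed 7 pairs, of which 2 had differences of the same sign. Tnfsf15 (0.34) and the adjacent Tnfsf8 (−0.16) differed in sign, as did Tnfsf18 (0.27) and Tnfsf4 (−0.12). None of the differences passed the test in the 11 pairs measured on both sides or in the 7 neighbouring pairs.

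Among superfamily genes with other names, the death receptor gene Fas fell and no gene rose (1 of 14 measured). Lower calls made up 1.52% of all probe sets, and the median difference of the 14 was −0.05. At an unadjusted p of 0.05 in limma 0 were higher and 3 lower, against 7.24% and 6.84% of all probe sets. Of the 14 genes 5 were dim, Lta, Cd70, Cd40lg, Eda and Eda2r. Fas ran from 7.41 to 8.36 under TUDCA and from 8.38 to 8.84 under vehicle. Its groups did not overlap, as for 1.18% of all probe sets in this direction. Its difference was −0.77 ± 0.10 (SE, adjusted p = 0.00139 in limma). It was −0.57 in the high range alone (adjusted p = 0.105) and without both low range TUDCA arrays (adjusted p = 0.0829). Tnf itself stood at −0.43 ± 0.13 (SE; adjusted p = 0.124) and Fasl, encoding the ligand of Fas, at −0.34 ± 0.14 (SE; adjusted p = 0.27). Ngfr, the low-affinity nerve growth factor receptor, stood at −0.13, Ltb, encoding lymphotoxin beta, at −0.19 and Edar, the ectodysplasin receptor, at −0.07, none of which passed. In the low and high range the difference of Tnf was −0.59 and −0.27, and its adjusted p ran from 0.0273 (without vehicle replicate 6) to 0.646 over the alternatives. For Fasl it was −0.65 and −0.04, and the adjusted p ran from 0.036 (without vehicle replicate 5) to 0.972.

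Adaptors downstream of these receptors showed no call. Of 12 measured TRAF adaptors and their regulators none passed the test in limma (4 lower and 0 higher at an unadjusted p of 0.05), 9 of 12 differences lay below 0 and the median was −0.16. Over all probe sets 6.84% were lower at that unadjusted p. Tifa, which links to TRAF6, stood at −0.39 (adjusted p = 0.137), Traf3ip3 at −0.29 (adjusted p = 0.22) and Traf3ip2, the adaptor of IL-17 receptors, at −0.21 (adjusted p = 0.176). Traf2 ran from 7.36 to 7.56 under TUDCA and from 7.58 to 7.84 under vehicle, without overlap, as did 1.18% of all probe sets in this direction, yet its difference of −0.17 did not pass (adjusted p = 0.281). Traf5 stood at −0.19 and Birc2, encoding the ubiquitin ligase cIAP1, at −0.18.

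Of 7 measured genes of the alternative NF-kappaB pathway, which receptors such as RANK, the BAFF receptor and Fn14 use, none passed either (2 lower and 0 higher at an unadjusted p of 0.05 in limma), and 3 of them, Traf2, Birc2 and Birc3, also stand among the TRAF genes. The median difference of the 7 genes was −0.12, and 6.84% of all probe sets were lower at that unadjusted p. Relb, the transcription factor at the end of that pathway, ran from 8.15 to 8.59 (median 8.31) under TUDCA and from 8.40 to 8.79 (median 8.69) under vehicle, and its difference was −0.32 ± 0.09 (SE; adjusted p = 0.0713). Over the alternatives its adjusted p ran from 0.0126 to 0.723. Relb passed when vehicle replicate 5 (−0.41, adjusted p = 0.0165) or TUDCA replicate 3 (−0.36, adjusted p = 0.0188) was omitted. Cyld, a deubiquitinase that restrains NF-kappaB, stood at −0.11, Birc3 at −0.12 and Nfkb2, the precursor of the partner of RelB, at 0.03. Nfkb2 stood at −0.21 in the low and 0.26 in the high range (interaction in limma, unadjusted p = 0.00185 and adjusted p = 0.516).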

How the data were processed

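RNA of 12 small intestine samples was hybridised to Affymetrix arrays after biotin labelling, per the labels' protocols. The values the authors deposited are on a log2 scale, 1 for each probe set on each array. Oligo and RMA, which corrects background, normalises by quantiles and summarises probes, appear without versions in the submitters' processing notes. Since RMA equalises array distributions, a general shift of transcription would be hidden. No column was left unmapped.

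Gene names came from the platform annotation (of the probe sets 21557 name 1 gene, 787 several and 1647 none), and 1 probe set naming a family gene with another gene was left out. The fit used lmFit and eBayes with a trend, from limma 3.58.1 under R 4.3.3, on all 23991 probe sets, with treatment and number range as terms, two-sided, at an adjusted p of 0.05. An interaction term compared the ranges. The fit was also run on simulated data with independent normal noise for each probe set. Shifts shared by many probe sets of an array were not simulated. The p-values treat each array as 1 mouse, which the labels do not state, so the spread may in part be technical. Values were given by array for Tnfrsf12a and as ranges with medians for the rest of the 12 members with the smallest p. Up to 6 genes of each pathway list were named by smallest p. A list gene with several probe sets was read from its brightest. Genes of the other lists that are given with values, and further members, were chosen after their values were seen. The members and lists were chosen with earlier results of these data known. Alternatives covered the range term, a replicate block, the filter, normalisation, variance model, array weights, threshold and omission of each array. The number of arrays limits the precision.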

Additional observations from a re-analysis of the deposited data

Results flagged for a closer look

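A single array stood apart from the other 5 of its group for 3 members, by the gap to the nearest array relative to the range of the group. Of 52 groups of 6 arrays examined 3 were so marked, and chance alone marks about 1 in 20. For Tnfrsf23, vehicle replicate 1 had a log2 value of 6.78, and the other vehicle arrays ran from 5.78 to 6.13. For Tnfrsf25, TUDCA replicate 5 was at 6.12, and the other TUDCA arrays ran from 5.94 to 6.00. For the dim Tnfrsf8, TUDCA replicate 3 was at 4.95, and the others ran from 5.22 to 5.36.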

How the results depend on the processing

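The count of higher members, 1 over all arrays, was 2 with the replicate block without the number range, 2 in the low range alone, 0 in the high range alone, 3 with probe sets below the median level left out, 2 with dim probe sets left out, 3 with array weights, 3 at a threshold of 0.1, and from 1 to 2 when 1 array was left out. The count of lower members was 0 under every alternative run. With both a replicate block and the range term the counts were 1 higher and 0 lower, and Tnfrsf12a stood at 0.99 (adjusted p = 0.021). Deviations from the group mean in same-numbered TUDCA and vehicle arrays correlated at −0.06 to 0.26. Differently numbered arrays were not set beside them, so a pairing of the samples was not tested. Tnfrsf12a kept its call in 27 of 28 alternatives, of which the looser threshold of 0.1 could not remove it. Omission of dim or below-median probe sets, and 1 probe set or the mean per gene, left its own values unchanged (difference 1.05). Those alternatives were therefore little test of its call. Without the number range Tnfrsf12a stood at 0.83 (adjusted p = 0.0359 in limma). For the superfamily genes with other names the count of lower genes was 2 in the low range alone, 0 in the high range alone, 0 without both low range TUDCA arrays, and from 1 to 2 when 1 array was left out. For the alternative NF-kappaB pathway it was 1 without the number range, with the replicate block without the number range, in the low range alone, with probe sets below the median level left out, with array weights and at a threshold of 0.1, and from 0 to 1 when 1 array was left out. The count of lower T and NK cell markers, 5 over all arrays, was 3 in the low range alone, 3 without TUDCA replicate 2, 0 in the high range alone and 0 without both low range TUDCA arrays, and that of higher injured epithelium genes, 1 over all arrays, was 0 under each of the latter 2, all chosen after the values were seen. No TRAF gene passed under any alternative run. The high range alone called 6 higher and 3 lower of all probe sets. For these shifts the cause was not tested, beyond the smaller number of arrays or probe sets that some alternatives hold.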

Other observations

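M cells, the epithelial cells over lymphoid follicles that depend on RANK ligand, were examined through 9 marker genes. None passed the test in limma (1 higher and 0 lower at an unadjusted p of 0.05), and the median difference was −0.01. Ccl9, a chemokine of the follicle epithelium, stood at 0.22 (adjusted p = 0.123) and Tnfaip2 at −0.29 (adjusted p = 0.49). The defining markers Gp2 and Spib were dim. Stromal and endothelial markers, cell types that carry several of the receptors, gave no call among 12 and 10 measured genes, with medians of −0.04 and −0.12 (1 stromal gene lower, 0 endothelial genes lower and 0 genes of either list higher at an unadjusted p of 0.05 in limma). Of 10 neutrophil markers 1 rose, Ly6g (1.26, adjusted p = 0.0211), and 7 were dim. The Ly6g mean was 6.03 under TUDCA and 4.78 under vehicle, the latter below the dim level of 5.31. At an unadjusted p of 0.05 in limma 1 of the 10 markers, Ly6g, was higher and 0 were lower. The median difference of the 10 was 0.04.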
